A study of Arabidopsis thaliana with 20 samples.

Results

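Photosystem I is the light-driven complex of the thylakoid membrane that passes electrons from plastocyanin to ferredoxin. The plastid genome of Arabidopsis thaliana carries 5 genes for its subunits, psaA, psaB, psaC, psaI and psaJ, and a pair of genes for proteins that assemble it, ycf3 and ycf4. These 7 genes, out of 111 plastid genes measured, were taken by name, and protein occupancy was read over each gene span (introns included) and over the 200 bp before its start. The plastid-encoded RNA polymerase transcribes most photosystem genes, and PTAC3 is a protein associated with that polymerase. Plastid DNA lies in nucleoids, where RNA polymerase and DNA-packaging proteins are among the proteins bound to it.

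In vivo protein occupancy display (IPOD) crosslinks proteins to DNA with formaldehyde and sequences the DNA that comes with protein (IPOD) beside total DNA (input). It reports any bound protein and does not name the protein. There were 20 libraries. Of these, 4 IPOD and 4 input libraries came from rosette leaves of wild-type Col-0 plants aged 14 days on soil, 5 g of leaf for a preparation, with formaldehyde added to the isolated chloroplasts. A further 3 IPOD and 3 input libraries came from ptac3 seedlings, and 3 IPOD and 3 input libraries from Col-0 seedlings, aged about 4 days on plates in continuous light, with 50 pooled seedlings for a preparation and formaldehyde added before the chloroplasts were isolated. All were crosslinked at 4% formaldehyde for 4 h. The ptac3 allele is not given in the sources used here. Leaf and seedlings differed in age, growth, tissue and the order of crosslinking at once, so their values stand side by side below with no test between them. Whether replicates came from separate plants is not stated, and the p-values measure the spread between these libraries.

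Mean depth ran from 54.5 reads per base in leaf IPOD library 2 to 3383 in leaf input library 3. The labels of IPOD library 3 of the Col-0 seedlings conflict, with Col-0 in the title and ptac3 as the cell line, and the title was followed. Titles also placed the ptac3 libraries, whose genotype label reads wild type. The nuclear gene PTAC3 lies outside the plastid positions, so it could not serve to check either label. In leaf, libraries 1 and 3 stood apart from libraries 2 and 4 at some members but not at all. Over psaJ, IPOD depth was 1.2 and 1.13 times the library mean in 1 and 3, and 0.634 and 0.649 in 2 and 4. Over psaA it was 1.04, 0.78, 1.04 and 1.04 in libraries 1 to 4, so library 4 lay with 1 and 3 there. The leaf results of psaA, psaI and ycf3 are also given within each set. Every log2 ratio below is log2 of IPOD over input after each library was divided by its own mean depth and a small constant was added, and limma was said to call a value when its p, adjusted by Benjamini and Hochberg's method across every gene, window or bin, was under 0.05. Centring the libraries on their median gene put the median leaf ratio of all genes at 0.048, against -0.058 with the library mean, so the sign of a small leaf ratio rests on the scaling.

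Across the gene spans, the median ratio of the photosystem I genes was small in leaf and in both kinds of seedlings. The genes lay on both sides of 0 in leaf and in ptac3 seedlings. In Col-0 seedlings all lay below 0 with the library mean as the scale. In leaf the 7 log2 ratios ran from -0.29 to 0.052 with a median of -0.083, against a median of -0.058 over all 111 genes. In ptac3 seedlings they ran from -0.0086 to 0.24 with a median of 0.036, against 0.039 over all genes. In Col-0 seedlings all 7 lay below 0, from -0.25 to -0.059, with a median of -0.09 against -0.055 over all genes, of which 68 of 111 lay below 0. With scaling outside the rRNA operon psaB, psaI and psaJ lay above 0 in Col-0 seedlings, at 0.0083, 0.027 and 0.019. The others stayed below 0, psaC at -0.16, ycf3 at -0.091, psaA at -0.037 and ycf4 at -0.0035, none of them called by limma. The median of the 7 was then -0.0035, against 0.028 over all genes. The signs of psaB, psaI and psaJ thus rest on the scaling. In leaf limma called 0 of the 7 genes, with 0 at an unadjusted p under 0.05, and it called 0% of all genes. With the replicate number as a block it again called 0 of the 7 in leaf, although it then called 14.4% of all genes higher in IPOD and 4.5% lower. In ptac3 seedlings it called 0 of the 7 and 0% of all genes, with 0 of the 7 at an unadjusted p under 0.05. In Col-0 seedlings it called 1 of the 7, psaC, lower in IPOD than in input, against 3.6% of all genes, and 0 higher, against 6.31%. A limma fit with a variance trend and robust variances gave the same numbers of called members in these 3 comparisons.

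Read depth itself showed where the groups separated. In Col-0 seedlings the IPOD libraries lay below the input libraries with no overlap for 4 of the 7 genes (psaA, psaB, psaC and ycf3), against 25.2% of all genes, and above them for 0, against 16.2%. Without the doubly labelled IPOD library the same 4 genes separated, against 39.6% of all genes. In leaf the IPOD libraries lay apart from the input libraries for 0 of the 7, against 3.6% of all genes above and 0.901% below. In ptac3 seedlings 0 of the 7 separated, against 2.7% above and 0.901% below.

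**Figure D1:**
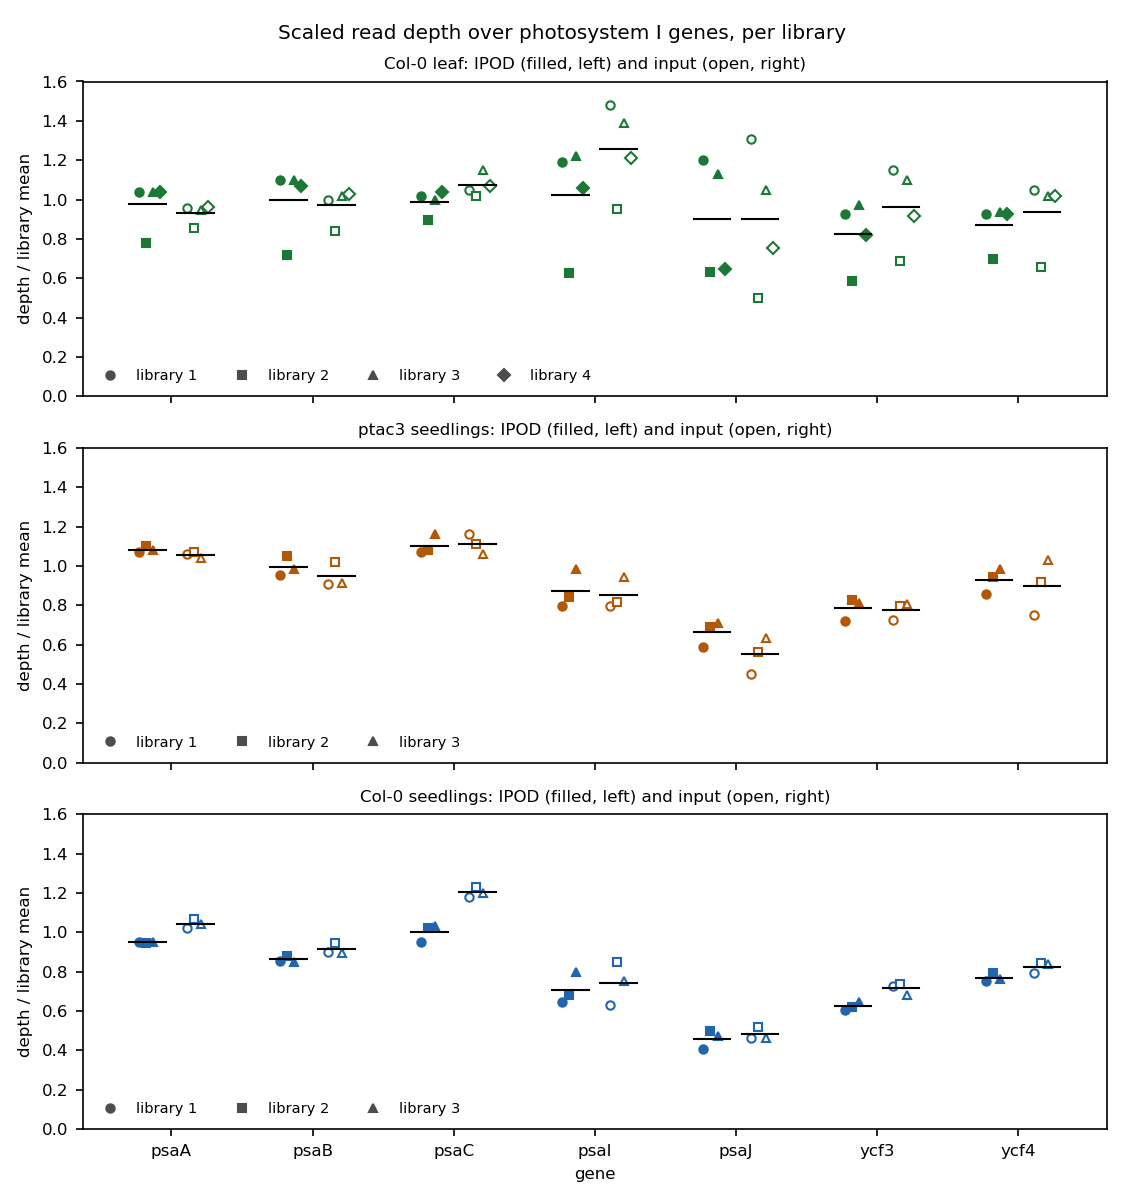
Read depth over each photosystem I gene divided by the library mean (vertical axis), with 1 point per library and a line at the group mean, for IPOD (filled, left) and input (open, right). Leaf IPOD library 2 is the lowest leaf IPOD point at each of the 7 genes, and in Col-0 seedlings the filled points of psaA, psaB, psaC and ycf3 all lie under the open ones.

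psaA and psaB encode the large core subunits that bind most of the pigments and the primary electron donor. They lie in tandem, 25 bp apart, with rps14, a ribosomal protein gene, after psaB. In leaf psaA had a depth of 1.04, 0.78, 1.04 and 1.04 times the library mean in IPOD libraries 1 to 4, against 0.956, 0.858, 0.949 and 0.96 in the input libraries. IPOD was the higher of the pair in libraries 1, 3 and 4 and the lower in library 2, and the groups overlapped. The log2 ratio of psaA in leaf was 0.052 ± 0.12 (SD over 4 pairs), with an adjusted p of 0.852 by limma. In ptac3 seedlings psaA had 1.07, 1.1 and 1.08 in IPOD against 1.06, 1.07 and 1.04 in input, and the 3 log2 ratios lay between 0.014 and 0.06. In Col-0 seedlings it had 0.95, 0.947 and 0.953 in IPOD against 1.02, 1.07 and 1.04 in input. The Col-0 IPOD values of psaA were nearly equal and all under the lowest input value. The log2 ratio there was -0.13 ± 0.029 (SD over 3 pairs), with a limma 95% interval of -0.25 to -0.0041 and an adjusted p of 0.169. Col-0 libraries were matched by number only, so this SD and the other Col-0 SDs below depend on that match.

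psaB followed psaA closely. In leaf it had 1.1, 0.72, 1.1 and 1.07 in IPOD against 1 (library 1), 0.838, 1.02 and 1.03 in input, again with library 2 as the exception. Its log2 ratio was 0.018 ± 0.15 in leaf, 0.061 ± 0.033 in ptac3 seedlings and -0.079 ± 0.016 in Col-0 seedlings (SD over 4, 3 and 3 pairs), and limma called it in none of these comparisons. Over the 10 library pairs, psaB was the gene most like psaA of all those measured, at a root mean square distance of 0.044 on the log2 scale, where the median gene lay 0.22 away. The next most alike to either was psbE, a photosystem II gene, at 0.078 from psaA and 0.07 from psaB. The neighbour rps14 had a log2 ratio of 0.29 in leaf, -0.017 in ptac3 seedlings and -0.093 in Col-0 seedlings, with adjusted p of 0.61, 0.989 and 0.434 by limma.

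Inside psaA and psaB limma called no bin, though adjoining bins of psaA rose and fell together. From 41001 to 41200 its bins lay at -0.34 to -0.24 in Col-0 seedlings, -0.19 to -0.14 in leaf and -0.049 to 0.038 in ptac3 seedlings. Of 45 bins of 50 bp in psaA, 39 had a mean log2 ratio above 0 in leaf, 27 in ptac3 seedlings and 10 in Col-0 seedlings. In psaB the numbers were 29, 36 and 12 of 45. The lowest bin of psaA in leaf and in Col-0 seedlings was the same, chr Pt 41051 to 41100 in the TAIR10 numbering of the files, 782 bp into the gene, at -0.19 in leaf and -0.34 in Col-0 seedlings. Neither value was called by limma, with adjusted p of 0.826 in leaf and 0.101 in Col-0 seedlings. The leaf value came from library 2, at -0.87, with libraries 1, 3 and 4 at 0.007, 0.04 and 0.072. In ptac3 seedlings the lowest bin was 1732 bp into the gene, at -0.14. The highest bin of psaA was 1132 bp in at 0.27 in leaf, 1082 bp in at 0.44 in ptac3 seedlings and 932 bp in at 0.23 in Col-0 seedlings. Their adjusted p by limma were 0.815, 0.999 and 0.482.

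The largest signal of any photosystem I gene lay before psaA, in leaf. In the 200 bp before psaA, the leaf depth was 2.07, 2.01, 1.92 and 0.892 times the library mean in IPOD libraries 1 to 4, against 1.03, 0.914, 1.07 and 0.926 in the input libraries. IPOD was far above the input in libraries 1, 2 and 3 and just below it in library 4, so the groups overlapped through that library alone. The log2 ratios were 0.94, 1.06, 0.79 and -0.049, with a mean of 0.69 (SE 0.27, limma 95% interval 0.12 to 1.26). The unadjusted p was 0.0218 and the adjusted p was 0.381 by limma, so the window was not called. With the replicate block the limma adjusted p was 0.0597, again with no call, when 0.909% of all windows were called each way. It ranked 6 of 110 windows from the highest. Without IPOD library 4 the mean was 0.96 with an adjusted p of 0.00834 by limma, when 16 windows were called higher and 2 lower of 110. Within libraries 1 and 3 it was 0.87 with an adjusted p of 1.37e-06, when 40 windows were called higher and 41 lower. Within libraries 2 and 4, which lie 1 on each side, it was 0.51 with an adjusted p of 0.995. Library 4 was among the deeper ones, at 942.8 reads per base in IPOD and 1681 in input.

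In 50 bp bins this signal was a single peak between psaA and ycf3, in the 726 bp gap that holds no gene. The bin was singled out after its values were seen, as the highest leaf bin in the 600 bp before psaA. It covers 42051 to 42100 and is centred 218 bp before the start of psaA. Its leaf depth was 3.39, 4.66, 2.76 and 1.1 times the library mean in IPOD libraries 1 to 4, against 1.15, 1.34, 1.2 and 1.09 in the input libraries. The log2 ratios were 1.48, 1.73, 1.14 and 0.014, with a mean of 1.09 (limma 95% interval 0.30 to 1.89), and the bin ranked 2 of 2564 from the highest in leaf. The unadjusted p was 0.0117 and the adjusted p was 0.815, when limma called 0% of all bins in leaf. With the replicate block the adjusted p was 0.0587, when 0% of all bins were called. With the block and scaling over 1 copy of the inverted repeat it was 0.039, when 139 bins were called higher and 33 lower of 2564. Within libraries 1 and 3 the mean was 1.31 with an adjusted p of 0.000126, when 561 bins were called higher and 1014 lower. Within libraries 2 and 4 it was 0.87 with an adjusted p of 1. The adjoining bin from 42001 to 42050 had a mean of 1.05, and the ratio was back below 0 in the bin centred 368 bp before the start, at -0.12.

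The same bin also had a high ratio in Col-0 seedlings. Its ratio was lower in ptac3 seedlings, by an amount that was not called without a replicate block. IPOD depth at this bin was under the library mean in every seedling library, unlike in leaf, and the Col-0 inputs were lower still. The bin had a depth of 0.749, 0.857 and 0.913 in ptac3 IPOD libraries 1 to 3 against 0.453, 0.784 and 0.996 in ptac3 input. In Col-0 seedlings it had 0.956, 0.917 and 0.852 in IPOD against 0.577, 0.493 and 0.425 in input. The ptac3 groups overlapped, with IPOD above its input in libraries 1 and 2 and below it in library 3, while all 3 Col-0 IPOD values lay above all 3 Col-0 input values, as they did in 12.4% of all bins (23.1% lay below). The log2 ratio was 0.21 in ptac3 seedlings (limma 95% interval -0.22 to 0.64, adjusted p 0.999). It was 0.78 in Col-0 seedlings (interval 0.35 to 1.21), with an unadjusted p of 0.00168 and an adjusted p of 0.0547, just past the threshold, and it ranked 20 of 2564. When libraries were divided by their mean over 1 copy of the inverted repeat the Col-0 adjusted p was 0.0324 (54 bins called higher and 29 lower of 2564). When centred on their median it was 0.00889 (84 called higher and 14 lower). Without the doubly labelled library the Col-0 value was 0.82 with an adjusted p of 0.0934. Over all the alternatives run for this bin the adjusted p in Col-0 seedlings ran from 4.67e-06 to 0.226. The difference, ptac3 minus Col-0, was -0.57 (interval -1.18 to 0.04), with an unadjusted p of 0.0649 and an adjusted p of 0.562 by limma, or 0.121 by the robust fit. Each ptac3 pair lay below each Col-0 pair (matched by number only) here, as in 10.1% of all bins, with 22.4% the other way round.

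The 200 bp window caught only the near side of this peak in seedlings. In ptac3 seedlings the window before psaA had log2 ratios of -0.014, 0.081 and -0.11, and in Col-0 seedlings -0.14, -0.27 and 0.19. Both groups lay on each side of 0. In Col-0 seedlings the bin centred 68 bp before the start was at -0.33, while the bin at 218 bp was at 0.78, so the window mean of -0.078 averaged bins of opposite sign.

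**Figure D2:**
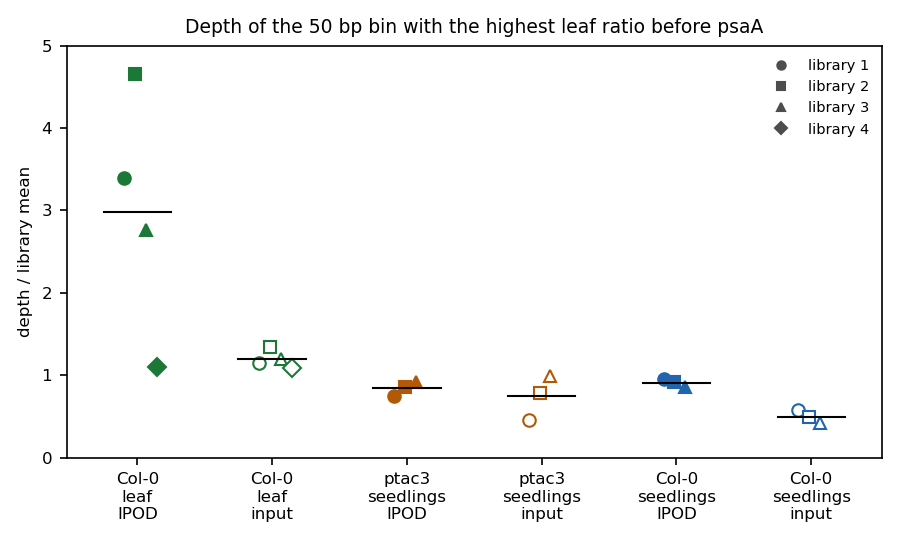
Depth over the library mean (vertical axis) of the bin 218 bp before psaA, with 1 point per library and a line at the group mean, IPOD left of its input in each tissue. Leaf IPOD libraries 1 to 3 lie between 2.76 and 4.66, above all leaf inputs, and leaf IPOD library 4 lies at 1.1 among them.

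psaC encodes the small stromal subunit that carries the terminal iron-sulfur clusters. It lies inside a row of ndh genes, which encode the plastid NADH dehydrogenase-like complex, with ndhE 240 bp before it and ndhD 150 bp after it. In leaf psaC had 1.02, 0.895, 0.996 and 1.04 in IPOD against 1.05, 1.02, 1.15 and 1.07 in input. Each IPOD value lay below the input of its own number, with overlap between the groups, and the log2 ratio was -0.11 ± 0.08 (SD over 4 pairs, adjusted p 0.728 by limma). In ptac3 seedlings it had 1.07, 1.08 and 1.16 in IPOD against 1.16, 1.11 and 1.06 in input, and the log2 ratios of -0.11, -0.034 and 0.12 fell on both sides of 0. In Col-0 seedlings it had 0.95, 1.02 and 1.03 in IPOD against 1.18, 1.23 and 1.2 in input. The Col-0 groups did not overlap. The log2 ratio there was -0.25 ± 0.04 (SD over 3 pairs), below 0 in 3 of 3 pairs, with a limma 95% interval of -0.39 to -0.11 and an adjusted p of 0.0268. It ranked 107 of 111 genes from the highest.

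This call depended on the processing and on each of the Col-0 libraries. With libraries centred on their median gene the ratio was -0.20 with an adjusted p of 0.0833, and with scaling outside the rRNA operon it was -0.16 with an adjusted p of 0.165. Leaving out any of the 6 Col-0 libraries ended the call, with ratios from -0.27 to -0.22. Without the doubly labelled IPOD library the ratio was -0.27 with an adjusted p of 0.056. Over the 30 alternatives the ratio stayed between -0.27 and -0.16, with 20 of them calling it and adjusted p from 0.00363 to 0.165.

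The low ratio of psaC in Col-0 seedlings ran over its whole length. Of its 5 bins, 0 were above 0 in leaf, 3 in ptac3 seedlings and 0 in Col-0 seedlings, and the Col-0 bins lay between -0.30 and -0.20. The 200 bp before psaC had a log2 ratio of -0.24 in leaf, -0.04 in ptac3 seedlings and -0.23 in Col-0 seedlings, none of them called by limma (adjusted p 0.632, 0.999 and 0.498). The 200 bp after it had -0.28 ± 0.031 in leaf, -0.086 ± 0.20 in ptac3 seedlings and -0.31 ± 0.035 in Col-0 seedlings, with no constant added. The 6 ndh genes around it had ratios from -0.18 to -0.06 in leaf, 0.067 to 0.14 in ptac3 seedlings and -0.14 to 0.024 in Col-0 seedlings, and limma called 0 of the 6 in each. The genes most like psaC over the 10 pairs were rps16 and psbB, at distances of 0.082 and 0.10.

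psaI and psaJ encode small membrane-spanning subunits at the rim of the complex. psaI is followed by ycf4, 411 bp on, and then by cemA and petA. In leaf psaI had 1.19, 0.629, 1.22 and 1.06 in IPOD against 1.48, 0.951, 1.39 and 1.21 in input, with each IPOD value below the input of its own number. The log2 ratios were -0.29, -0.53, -0.17 and -0.18, with a mean of -0.29 (limma 95% interval -0.79 to 0.21, adjusted p 0.632), and psaI ranked 107 of 111 genes from the highest. The 200 bp before it had -0.53, -0.32, -0.26 and -0.53, a mean of -0.41 with an adjusted p of 0.59, and ranked 108 of 110 windows. With the replicate block the limma adjusted p was 0.061 for the gene and 0.057 for the window. That fit called 14.4% of all genes higher and 4.5% lower, and 0.909% of all windows each way. Within leaf libraries 1 and 3 the ratio was -0.23 (adjusted p 0.0107) for the gene and -0.40 (0.000698) for the window. In that set, though, limma called 38 genes higher and 42 lower of 111, and 40 windows higher and 41 lower of 110. Within libraries 2 and 4 it was -0.35 (adjusted p 0.991) for the gene and -0.43 (0.995) for the window. In seedlings the log2 ratio of psaI was 0.029 ± 0.026 in ptac3 and -0.059 ± 0.20 in Col-0 (SD over 3 pairs each).

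psaJ lies 365 bp after trnP, a tRNA gene for proline, and before rpl33 and rps18. Its input depth was 1.31, 0.498, 1.05 and 0.753 in leaf, 0.451, 0.565 and 0.634 in ptac3 seedlings and 0.463, 0.518 and 0.465 in Col-0 seedlings. The leaf inputs spread more widely than those of any other member. Its log2 ratio in leaf was 0.02 ± 0.22, with pairs 1 and 4 below 0 and pairs 2 and 3 above. In ptac3 seedlings it had 0.587, 0.688 and 0.712 in IPOD against 0.451, 0.565 and 0.634 in input. Each ptac3 IPOD value lay above the input of its own number, with log2 ratios of 0.32, 0.25 and 0.15, although the groups overlapped. The mean of 0.24 (limma 95% interval -0.0016 to 0.48) ranked 2 of 111 genes, with an unadjusted p of 0.0513 and an adjusted p of 0.941. With the replicate block these were 0.00177 and 0.196 by limma, when 0% of all genes were called. In Col-0 seedlings it had 0.406, 0.496 and 0.474 in IPOD against 0.463, 0.518 and 0.465 in input, a log2 ratio of -0.062 ± 0.091. Of the 4 genes named as its operon neighbours (petL, petG, rpl33 and rps18), limma called 0 in every comparison, and their ratios in ptac3 seedlings ran from 0.039 to 0.26. The genes most like psaJ were petG and psbJ, both 0.14 away.

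The flank of psaJ held a peak inside the tRNA gene, a pattern that was not particular to trnP. Over gene spans, 30 of 30 tRNA genes had a ratio above 0 in leaf (median 0.44). In Col-0 seedlings 27 of 30 did (median 0.21), and limma called 7 higher. For ptac3 minus Col-0, 27 of 30 lay below 0 and 3 above (median -0.25). The highest leaf bin in the 600 bp before psaJ, from 66501 to 66550, lay in trnP and was singled out after its values were seen. It had log2 ratios of 0.89, 1.03, 0.59 and 0.38 in leaf, 0.13, 0.025 and -0.31 in ptac3 seedlings and 0.77, 0.87 and 0.43 in Col-0 seedlings. In Col-0 seedlings the mean of 0.69 was called (adjusted p 0.0395 by limma, when 1.72% of all bins were called higher), and the call was lost on leaving out any 1 Col-0 library other than IPOD library 3 (adjusted p 0.0763 to 0.214), or library 2 of ptac3 IPOD (0.0628) or ptac3 input (0.0663). Of ptac3 minus Col-0 the difference at this bin was -0.74, with an unadjusted p of 0.00622 and an adjusted p of 0.495 by limma. The robust fit called it (adjusted p 0.0266), but the share of all bins that this fit called is not given here. The 200 bp directly before psaJ had mean ratios of 0.14 in leaf, -0.054 in ptac3 seedlings and -0.11 in Col-0 seedlings, with no call.

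ycf3 and ycf4 encode proteins of the thylakoid that help to put photosystem I together and are not part of the finished complex. ycf3 lies before psaA on the same strand, 235 bp after a trnS gene, and its introns could not be set apart from its exons. In leaf ycf3 had 0.928, 0.586, 0.97 and 0.82 in IPOD against 1.15, 0.687, 1.1 and 0.917 in input. All 4 pairs lay below 0, with log2 ratios of -0.28, -0.20, -0.17 and -0.14, and all 40 of its bins had a mean below 0. The depths of the IPOD and input groups overlapped, while the pair ratios lay close together, with an SD of 0.058 over 4 pairs. The mean of -0.20 had an adjusted p of 0.713 by limma with the pairs left out. With the replicate block it was 0.0679, again with no call, when 14.4% of all genes were called higher and 4.5% lower. The ycf3 ratio was -0.22 within libraries 1 and 3 (adjusted p 0.0105, when 38 genes were called higher and 42 lower of 111). It was -0.17 within libraries 2 and 4 (adjusted p 0.991). In ptac3 seedlings the ratio was 0.014 ± 0.031. In Col-0 seedlings ycf3 had 0.603, 0.621 and 0.645 in IPOD against 0.726, 0.739 and 0.682 in input, with no overlap. The log2 ratio of -0.18 ± 0.091 had an unadjusted p of 0.0302 and an adjusted p of 0.159. Its lowest bin in Col-0 seedlings, 616 bp into the gene, was at -0.52 with an adjusted p of 0.0623, and its highest, 1366 bp in, was at 0.29 with an adjusted p of 0.263. The genes most like ycf3 were accD and rps18, at 0.05 and 0.056. The trnS gene before it had 0.13 in leaf, -0.18 in ptac3 seedlings and 0.033 in Col-0 seedlings, with no call.

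ycf4 had the ratio nearest to 0 of the 4 genes below 0 in leaf. Its depth was 0.929, 0.697, 0.936 and 0.926 in leaf IPOD against 1.05, 0.658, 1.02 and 1.02 in leaf input, with library 2 above its input and the others below theirs. With libraries centred on the median the leaf value was 0.023, above 0. Its log2 ratio was -0.083 ± 0.10 in leaf, 0.051 ± 0.12 in ptac3 seedlings and -0.09 ± 0.028 in Col-0 seedlings, with adjusted p of 0.834, 0.941 and 0.562 by limma. In Col-0 seedlings it was below 0 in 3 of 3 pairs, but the libraries overlapped. Its neighbours cemA and petA had ratios of -0.11 and -0.072 in Col-0 seedlings. The genes most like ycf4 were ndhF and cemA, at 0.087 and 0.10.

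**Figure D3:**
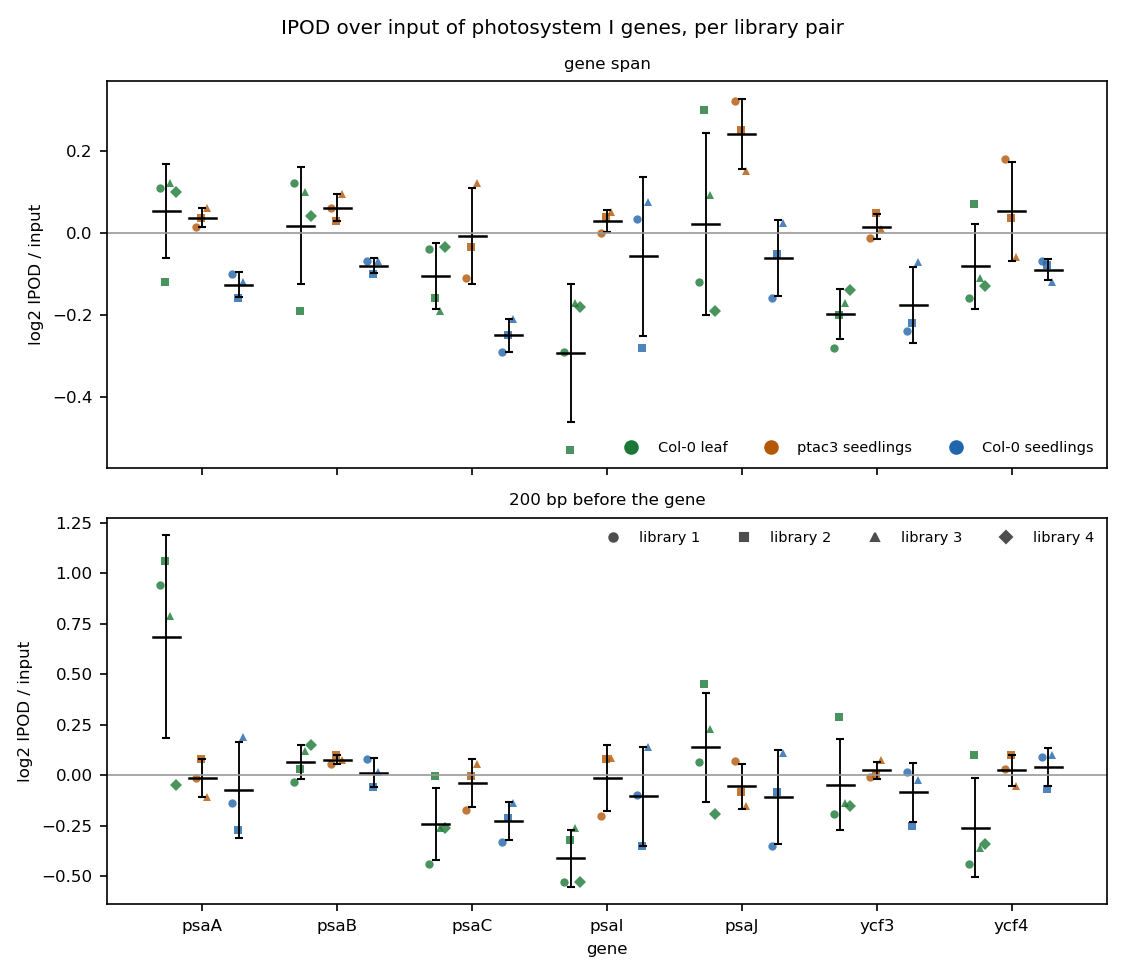
Log2 IPOD over input (vertical axis) of each photosystem I gene span (top) and of the 200 bp before it (bottom), with 1 point per pair of equal library number, lines at the mean and bars of 1 SD. The window before psaA in leaf stands highest, with 3 pairs between 0.79 and 1.06 and 1 at -0.049, and all 3 Col-0 pairs of psaC lie between -0.29 and -0.21.

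**Figure D4:**
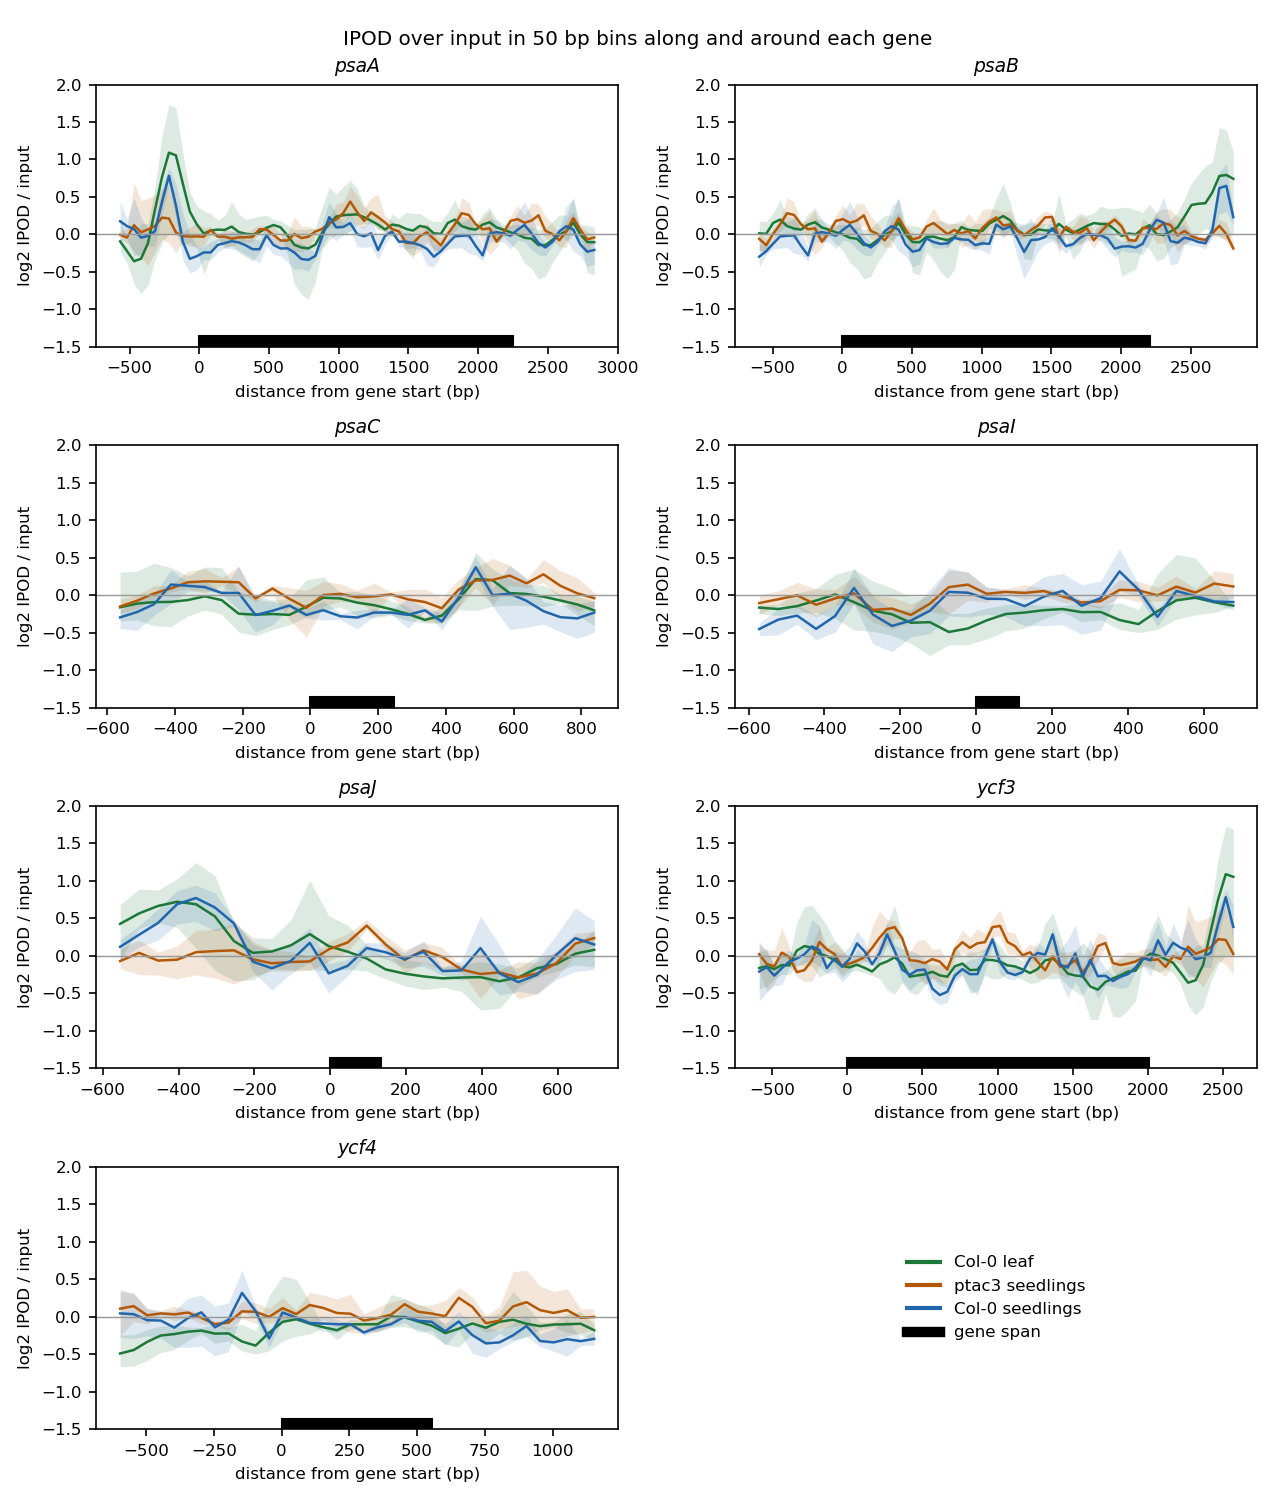
Mean log2 IPOD over input in 50 bp bins (vertical axis) against distance from the start of each gene in the direction of transcription, with shading from the lowest to the highest library pair and a black bar for the gene. The leaf peak before psaA reaches 1.09 and reappears at the right edge of the ycf3 panel, since the gap between them is shared.

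Levels differed between the genes more than the ratios did. In Col-0 seedlings input depth per base fell in the order psaC (1.21 ± 0.0269), psaA (1.04 ± 0.021), psaB (0.916 ± 0.0285), ycf4 (0.825 ± 0.0286), psaI (0.744 ± 0.109), ycf3 (0.716 ± 0.0296) and psaJ (0.482 ± 0.0311, SD, n = 3 each), and the neighbours that overlapped were ycf4 with psaI and psaI with ycf3. The order of the mean depths was the same in ptac3 IPOD, ptac3 input and Col-0 IPOD. In leaf the order differed, with psaI highest in both IPOD (1.02 ± 0.273) and input (1.26 ± 0.231), and each gene there overlapped the next.

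The genotype comparison asked whether the ratio of each gene changed in ptac3 seedlings relative to Col-0 seedlings. All 7 differences, ptac3 minus Col-0, were above 0 (psaI was not once libraries were centred on the median), from 0.088 to 0.30 on the log2 scale with a median of 0.16, but 76 of all 111 genes were above 0 as well and the median gene stood at 0.11. limma called 0 of the 7, with 1 (psaC) at an unadjusted p under 0.05, and it called 0% of all genes higher in ptac3 and 1.8% lower. The ptac3 pairs lay above the Col-0 pairs with no overlap for 6 of the 7 genes, all but psaI, against 36.9% of all genes, and below them for 0, against 18.9%. The Col-0 libraries were matched by number only, so these counts depend on that match. Without the third Col-0 pair the number was 6 of 7 again, against 47.7% of all genes. These differences rest on the same Col-0 values as the Col-0 ratios above.

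psaJ and psaC had the widest gaps. psaJ had log2 ratios of 0.32, 0.25 and 0.15 in ptac3 seedlings against -0.16, -0.052 and 0.024 in Col-0 seedlings, a difference of 0.30 (limma 95% interval -0.04 to 0.65, adjusted p 0.346) that ranked 3 of 111 genes. psaC had -0.11, -0.034 and 0.12 in ptac3 seedlings against -0.29, -0.25 and -0.21 in Col-0 seedlings, a difference of 0.24 (interval 0.041 to 0.44, adjusted p 0.223) that ranked 11. For both genes every ptac3 pair lay above every Col-0 pair. ycf3, psaA, psaB and ycf4 differed by 0.19, 0.16, 0.14 and 0.14, and psaI by 0.088, with adjusted p between 0.346 and 0.684.

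Centring each library on its median gene moved the median gene by about the 0.11 above, and the member differences shrank with it. They then ran from -0.021 (psaI) to 0.19 (psaJ), with a median of 0.053, and limma called 0. The direction for psaI thus changed with the scaling, and those of the other 6 did not. Among the other photosynthesis genes, limma called 0 of 15 photosystem II genes, 0 of 6 cytochrome b6f genes and 0 of 6 ATP synthase genes in this comparison, with median differences of 0.15, 0.077 and 0.18. In IPOD against input, limma called 0 members of those lists in leaf, ptac3 seedlings and Col-0 seedlings. Their median ratios in Col-0 seedlings were -0.064, -0.064 and -0.18, and the photosystem I median of -0.09 lay between them.

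limma called no genotype difference in the windows before the genes. The 7 differences ran from -0.015 (ycf4) to 0.19 (psaC), with 0 at an unadjusted p under 0.05, and limma called 0% of all windows higher and 0.909% lower. For IPOD against input limma called 0 of the 7 windows in leaf, where 0% of all windows were called, with 1 (psaA) at an unadjusted p under 0.05. It called 0 of the 7 in ptac3 seedlings, where 0% were called, and 0 in Col-0 seedlings, against 6.36% higher and 0.909% lower over all windows, with 0 at an unadjusted p under 0.05 in either, and the robust fit called 0 of the windows in each comparison. At none of the 7 windows did IPOD and input separate, or ptac3 pairs from Col-0 pairs. Over all windows IPOD lay above input in 1.82% and below it in 0.909% in leaf, in 1.82% and 2.73% in ptac3 seedlings and in 29.1% and 12.7% in Col-0 seedlings, and ptac3 pairs lay above Col-0 pairs in 17.3% and below them in 20.9%. The window before psaB repeats other data, since 175 of its 200 bp lie inside psaA. Of the 151 bins inside the members limma called 0 in leaf, 0 in ptac3 seedlings and 0 in Col-0 seedlings, with 0, 5 and 17 of them at an unadjusted p under 0.05, when limma called 0% of all bins in leaf and ptac3 seedlings and 1.72% higher and 1.17% lower in Col-0 seedlings. The fit with robust variances called 0, 0 and 8 of the 151, the 8 all lower, and in Col-0 seedlings it called 212 of all 2564 bins lower, a share above that of the members. For the genotype difference limma called 0 of the 151, and 0% of all bins, with 11 at an unadjusted p under 0.05, and the robust fit called 0.

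**Figure D5:**
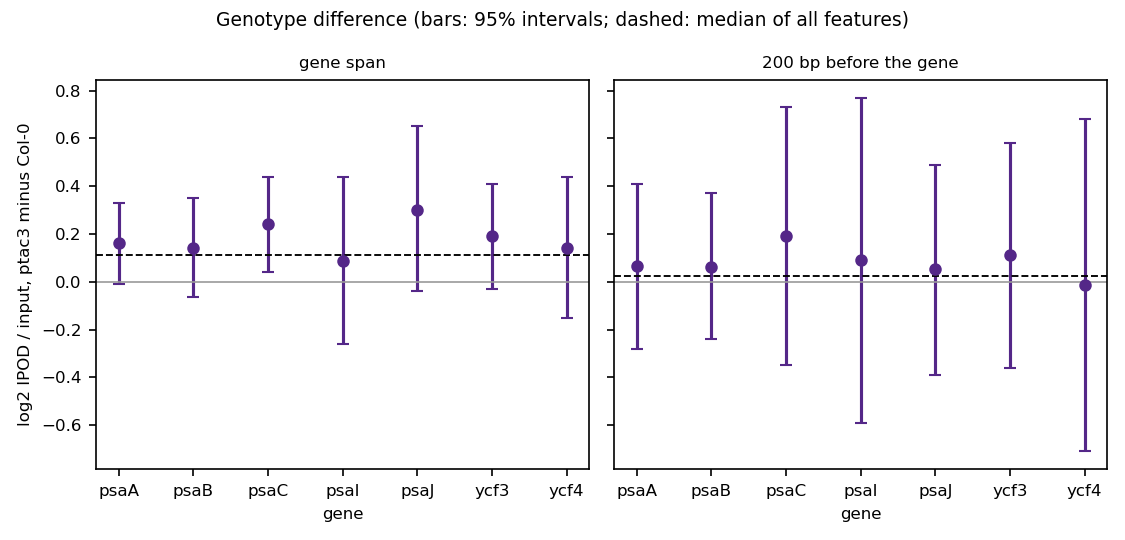
Difference in log2 IPOD over input, ptac3 minus Col-0 seedlings (vertical axis), with limma 95% intervals, for gene spans (left) and the 200 bp before them (right). The dashed line is the median of all genes (0.11) or windows (0.025), and it passes through the interval of each of the 7 genes.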

How the data were processed

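Protein occupancy was measured in 20 libraries. Per the file headers, the files deposited by the authors give the coverage (signal) at 154477 plastid positions, in whole reads and not scaled between libraries. The submitters' processing notes name Trim Galore 0.4.1, Bowtie2, bedtools 2.25.0 and TAIR10. Their settings, filters and the placement of reads in the inverted repeat are not given in the sources used here. Reads span many bases, so count models were not used, and depth gives no count of independent molecules.

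Libraries were grouped by title. Genes came from a TAIR10.1 table that has no strand, so no coordinate of it is printed. Its numbering was checked on the inverted repeat, where 7 of 7 genes in both copies and the depth of 20 of 20 libraries gave the same mirror sum of 238649. Positions from 128213 on, the second copy, were left out. Strand was taken from the known plastid gene map. This left 111 genes of at least 70 bp, 110 windows and 2564 bins. Depth was divided by the library mean over all positions, 10% of the median feature of that kind over the libraries of the fit was added, and log2 values were fitted with limma 3.58.1 (lmFit, eBayes, R 4.3.3), the 8 leaf libraries alone and the 12 seedling libraries together. The genotype difference was the IPOD over input ratio of ptac3 less that of Col-0. A call needed a p under 0.05 after Benjamini-Hochberg adjustment across all features. The fits were checked on simulated data with known shifts, larger than any member gene ratio here and with independent noise. That check does not show how well shifts as small as the member gene ratios would be found.

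The members, the gene lists and the tests were chosen with earlier results of these data known. Scaling over 1 repeat copy and other definitions of the added constant were also run, and for a time used, before the setting written first was kept; their values are given as alternatives chosen after seeing the data. All 7 members are described. For each, the 2 most alike genes by root mean square distance over the 10 pairs and the highest and lowest bin were fixed by rule. The bins before psaA and psaJ were singled out after their values were seen.

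Whether equal numbers pair the libraries was checked by correlating, over bins, the deviations of IPOD and input libraries from their group means. In leaf r was 0.839, 0.808, 0.914 and 0.633 and in ptac3 seedlings 0.761, 0.227 and 0.739, and these numbers were taken as pairs. The limma fit given first leaves the pairs out, and the fit with the replicate block takes them in. In Col-0 seedlings r was 0.267, 0.237 and 0.0237, and they were not. The Col-0 pair ratios, their SDs and the separations of ptac3 from Col-0 pairs still match libraries by number, so they depend on that match.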

Additional observations from a re-analysis of the deposited data

Results flagged for a closer look

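In leaf, with 4 libraries in a group, 1 library lay far from the other 3 (Dixon's test at the 95% level) in 9 of the 42 groups of member values tested. Chance gives about 1 in 20 for independent groups. These groups share libraries and values, so the count cannot be set against that rate. Library 2 stood apart in 8 of these. It was low over psaA, at 0.78 in IPOD and 0.858 in input relative to the library mean and at a log2 ratio of -0.12. It was also low over psaB, at 0.72 in IPOD and 0.838 in input, and over ycf4, at 0.697 in IPOD and 0.658 in input. In the window before ycf3 its log2 ratio was the highest, at 0.29. Library 2 was the shallowest leaf pair, at 54.47 reads per base in IPOD and 138.3 in input, and the part of depth in these values was not tested. Library 4 stood apart once, in the window before psaA, where its IPOD depth was 0.892 times the library mean.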

How the results depend on the processing

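For called members, the counts changed as follows, and where no cause follows from the setting itself the cause was not tested. For genes in Col-0 seedlings, where 1 of 7 was called, 0 were called with libraries centred on the median, with scaling outside the rRNA operon, with the trend over input removed and with median depth over bases. Leaving out 1 library gave 0 to 1, with 0 for each of the 6 Col-0 libraries.

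With the replicate block 3 Col-0 genes were called lower, among 27 of all 111, namely psaA (adjusted p 0.0408), psaC (0.00884) and ycf3 (0.0223), and 3 with either other added constant, but 2 with 1 repeat copy. In Col-0 the libraries share only a number. For the genotype difference the block called 2 genes higher, among 19 of all 111, psaJ (0.0266) and psaC (0.0425), and 1 with 1 repeat copy. It called 1 Col-0 window lower, psaC (0.0362), among 12 of all 110. In leaf it called 0 genes and 0 windows, but 1 window (psaI, 0.0487, among 7 called lower of all 110) with 1 repeat copy, 2 windows when centred (psaA and psaI), and 2 genes, 2 windows and 2 bins without replicate 4. Over all windows the centred fit called 25 higher and 5 lower of 110, and without replicate 4 the block called 35 genes higher and 27 lower of 111, 39 windows higher and 22 lower of 110, and 440 bins higher and 372 lower of 2564. It called 18 of 151 member bins in Col-0 seedlings (13 with 1 repeat copy, 20 with a constant per library), against 273 higher and 414 lower of all 2564, a larger share than among the members. For the genotype difference it called 2 member bins (1 with 1 repeat copy), against 79 higher and 122 lower of 2564. The block also called the genotype difference of the bin before psaA at -0.57 (adjusted p 0.0379, or 0.0268 with 1 repeat copy) and of the trnP bin before psaJ at -0.74 (0.00577, or 0.00303 with 1 repeat copy).

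Leaf libraries 1 and 3 alone called 3 genes, 5 windows and 45 bins, when 38 genes were called higher and 42 lower of 111, 40 windows higher and 41 lower of 110, and 561 bins higher and 1014 lower of 2564, so the called share of members was below that of all features for genes, windows and bins. Leaving out 1 leaf library gave 0 to 1 windows, the 1 being psaA without IPOD library 4. Member bins in Col-0 seedlings, 0 at first, numbered 2 with a 50% constant, when 59 bins were called higher and 47 lower of 2564. They numbered 1 with low bins left out (45 higher and 34 lower of 2499). With robust variances they numbered 8 (98 higher and 212 lower of 2564). Col-0 libraries alone gave 6 (187 higher and 227 lower of 2564). Leaving out 1 library gave 0 to 3, the 3 without ptac3 IPOD library 1 (56 higher and 39 lower of 2564). All these member bins were lower in IPOD. No single value reversed past the threshold in 3077 recomputed values, though 205 that were called in neither fit changed sign. Depth was 54.5 reads per base in the shallowest library, leaf IPOD 2, and how far it limits the leaf calls was not tested.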
